A study of Sus scrofa with 10 samples.

Results

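The route from tryptophan through kynurenine to nicotinamide adenine dinucleotide (NAD) was followed through 10 of its genes in pig liver, during liver failure and its treatment. The genes were TDO2, IDO1, AFMID, KMO, KYNU, HAAO, ACMSD, QPRT, NAMPT and NNMT, taken by gene symbol, and each had 1 row among the 31905 genes of the deposited expression table. All 10 passed the filter on low values (1 FPKM or more in at least 2 libraries), which left 12180 genes for testing. FPKM scales the fragments of a gene to its transcript length and to the size of the library, so levels can be compared between genes.

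The study, as its design text and title give it, concerned post-hepatectomy liver failure, the failure of the remnant left after a large part of the liver is removed. A bioartificial liver (BAL) is an external circuit that treats the blood, here seeded with human induced hepatocytes (hiHep), hepatocyte-like cells made from other human cells. The 10 RNA-seq libraries, all of wild-type (WT) pigs, formed 5 groups: Control (normal liver, day 0, n = 3), No-BAL (failure without a device, day 2, n = 2), Empty-BAL (failure with an unseeded device, day 3, n = 2), hiHep-BAL day 4 (failure with the seeded device, n = 1) and hiHep-BAL day 8 (the same at day 8, n = 2). Each treatment was sampled on its own day, so treatment and day cannot be told apart, and the labels do not say whether the libraries of a group came from separate animals. If they did not, the p-values measure technical spread only.

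Tryptophan that is not used for protein is degraded mainly in hepatocytes. TDO2, or IDO1 in other cells, opens its ring, AFMID releases kynurenine, and KMO, KYNU and HAAO turn kynurenine into an unstable intermediate. That intermediate either closes by itself to quinolinate, which QPRT uses to make NAD, or is diverted by ACMSD towards oxidation through the glutarate branch. NAMPT makes NAD again from nicotinamide, and NNMT methylates nicotinamide for removal.

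In RefSeq's annotation of Sscrofa11.1, TDO2 lies on chromosome 8 from 44708722 to 44725954, IDO1 on chromosome 17 from 9245283 to 9260140 and AFMID on chromosome 12 from 3759688 to 3785829. KMO lies on chromosome 10 from 12442877 to 12489417. KYNU and ACMSD share chromosome 15, from 8847335 to 8982951 and from 17121950 to 17164005. HAAO and QPRT share chromosome 3, from 97580756 to 97595033 and from 17987223 to 18001712. NAMPT and NNMT share chromosome 9, from 106119896 to 106162126 and from 41871072 to 41882415. The values are of whole genes, with no split into exons or transcripts.

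Not all libraries were alike. The labels name the cell type as hepatocyte, but RNA was extracted from livers and markers of other cell types were present. The summed FPKM of 10 hepatocyte marker genes was 94416 to 97447 in Control, 25930 and 17960 in No-BAL, 3988 and 8332 in Empty-BAL, 44759 at day 4, and 25239 and 25182 at day 8. Single genes weighed heavily in these sums. ALB made up 52275 to 55098 FPKM in Control, and FGB 17066 FPKM at day 4 and 9495 FPKM in No-BAL 1. ALB was lower at day 4 (9660 FPKM) than at day 8 (13003 and 12980 FPKM). CPS1 was above Control at day 8 (564 and 560 against 284 to 311 FPKM). Fewer hepatocytes and less RNA per hepatocyte cannot be told apart in such samples. HNF4A, a hepatocyte transcription factor, was at 104.5 to 112.3 FPKM in Control and at 84.6 to 120.7 FPKM elsewhere, except in Empty-BAL, where it was at 3.15 and 46.5 FPKM. Empty-BAL 1 stood apart from Empty-BAL 2, since 29.3% of genes with a mean of 10 FPKM or more differed at least 2-fold between them. The same share was 12.6% between the No-BAL libraries, 0.20% between the day 8 libraries and 0.15% to 0.26% between pairs of Control libraries.

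The near identity of the Control libraries and of the day 8 libraries matters for every call below. A call is an adjusted p under 0.05 from limma's moderated test on log2(FPKM + 1), with Benjamini-Hochberg adjustment over the 12180 genes. With Control and day 8 each counted as 1 sample, 3 calls among the 10 genes were left, those of TDO2, KYNU and HAAO in Empty-BAL against Control.

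The plot of FPKM by library shows the 10 genes in every sample.

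**Figure D1:**
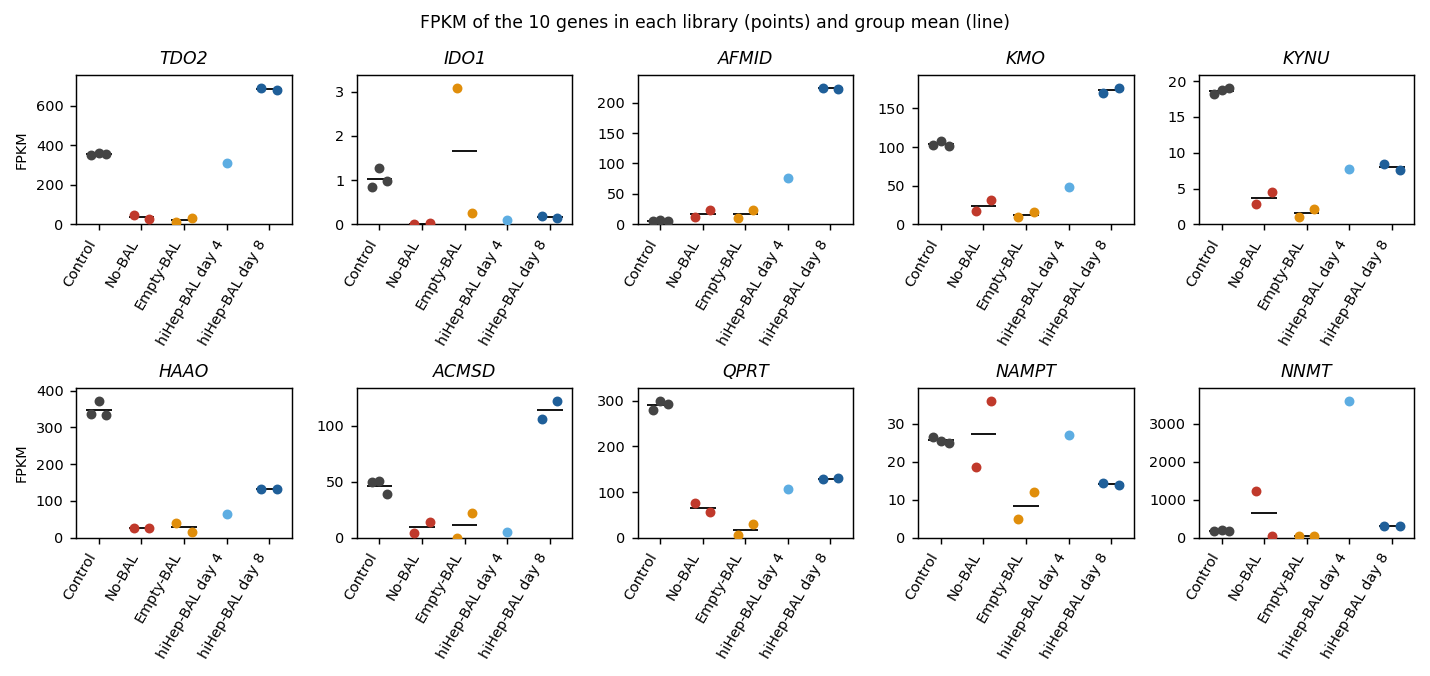
FPKM of each of the 10 genes (1 panel per gene, y axis from 0, scales differ) in each library (points) by group (x axis), with the group mean as a line where a group has more than 1 library. TDO2, KMO and ACMSD are highest at hiHep-BAL day 8, AFMID rises from the Control range of 5.34 to 7.17 FPKM to 223 and 224 FPKM there, and NNMT reaches 3580.2 FPKM in the day 4 library.

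In liver failure without a device, most of the pathway from TDO2 to QPRT fell. Against Control, 5 of the 10 genes were called lower (TDO2, KMO, KYNU, HAAO and QPRT), where 24.2% of all tested genes were lower. Only AFMID of the 10 was called higher, where 25.2% of all genes were higher. The median log2 change of the 10 genes was −2.10, and that of all genes 0.04. With the empty device, 7 of the 10 genes were called lower than in Control (the same 5, ACMSD and NAMPT) against 29.3% of all genes, and AFMID was again called higher, against 24.4%. There the medians were −2.96 and −0.03. Both comparisons used the same Control libraries. Of the 10 hepatocyte markers, 6 were called lower in No-BAL (median −2.19) and 10 in Empty-BAL (median −4.32), and their part in these results was not tested.

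TDO2, the dioxygenase that carries out the first and rate-limiting step in liver, was at 352, 362 and 355 FPKM in the Control libraries, about as high as HAAO and above the other 8 genes. It was at 49.8 and 27.98 FPKM in No-BAL, 11.11 and 30.5 FPKM in Empty-BAL, 310.4 FPKM in the day 4 library, and 689 and 679.6 FPKM at day 8. Both failure groups lay far below every other library, the day 4 library lay just under Control, and the day 8 libraries were the highest. TDO2 fell in No-BAL by 3.22 ± 0.40 (SE) on the log2 scale (adjusted p = 0.00051, limma) and in Empty-BAL fell by 4.19 ± 0.40 (adjusted p = 0.00013). At day 8 it was 4.16 ± 0.44 higher than in No-BAL (adjusted p = 0.00031) and 5.13 ± 0.44 higher than in Empty-BAL (adjusted p = 0.00020). The difference of 0.94 ± 0.40 between day 8 and Control did not pass (adjusted p = 0.11), although the mean at day 8 was 192% of the Control mean.

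IDO1, which does the same chemistry in immune and other cells and is induced by interferon gamma, was scarce throughout. It was at 0.838, 1.27 and 0.980 FPKM in Control, listed at 0 in No-BAL 1 and at 0.0346 FPKM in No-BAL 2, at 3.08 and 0.256 FPKM in Empty-BAL, at 0.105 FPKM at day 4, and at 0.182 and 0.147 FPKM at day 8. Empty-BAL 1 was the highest library and Empty-BAL 2 lay below Control, so the Empty-BAL group overlapped Control. None of the 6 comparisons was called in limma, and 2 of them had an unadjusted p under 0.05: Empty-BAL against No-BAL (log2 change 1.15 ± 0.45, adjusted p = 0.083) and No-BAL against Control (−0.99 ± 0.41, adjusted p = 0.080). The sign of the change from Control to Empty-BAL rested on which library was kept: it was −0.69 without Empty-BAL 1 (adjusted p = 0.0081) and 1.01 without Empty-BAL 2 (adjusted p = 0.0011). With a pseudocount of 0.1 in place of 1, limma called the change from Control to No-BAL (log2 change −3.27, adjusted p = 0.012). It also called Empty-BAL against No-BAL with that pseudocount (3.20, adjusted p = 0.030), which was at 2.00 without Empty-BAL 2. IDO1 reached the 1 FPKM of the filter only in Control 2 and Empty-BAL 1, so it was tested only through groups where it was high. The No-BAL values were at or near 0 and read depth is unknown, so these calls add no support for a change.

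Markers of immune cells also differed between the libraries. The summed FPKM of the 7 T and NK cell markers found, of 8 listed, was 76.1 and 47.3 in Empty-BAL against 22.0 to 24.1 in Control, 7.15 and 9.51 in No-BAL, 14.7 at day 4, and 20.5 in both day 8 libraries. NKG7 alone made up 53.4 and 25.9 FPKM of the Empty-BAL sums, while CD3D was below its Control levels in both libraries (0.604 and 0.641 against 0.907 to 1.54 FPKM). Of the 6 tested, 3 were called higher and 1 lower in Empty-BAL than in Control. In No-BAL 1, PRF1 and CD3D were at 0. The summed FPKM of the 5 neutrophil markers found, of 7 listed, was 626 and 100.5 in Empty-BAL, 234 and 26.3 in No-BAL, 66.1 at day 4 and at most 1.31 in Control and day 8, where S100A8 was at 0 in 4 of 5 libraries. The 4 dendritic cell markers found, of 7 listed, summed to 5.16 to 6.33 FPKM in Control, 9.28 and 2.59 in No-BAL, 9.69 and 5.86 in Empty-BAL, 36.7 at day 4, and 2.62 and 2.26 at day 8. The day 4 sum was nearly all BATF3 (34.9 FPKM), and XCR1 and CCR7 were below Control there (0.0762 and 0.506 FPKM). The 10 macrophage markers summed to 1107 to 1211 FPKM in Control, 459 and 219 in No-BAL, 854 and 1252 in Empty-BAL, 1082 at day 4, and 872 and 883 at day 8. CD14 made up 680 to 752 FPKM of the Control sums but 90.8 and 167 FPKM of the Empty-BAL sums. Against Control, 5 of the 10 were called higher in Empty-BAL and 1 lower, beside 24.4% and 29.3% of all genes. The part of these immune cells in the IDO1 values and in the interferon gamma genes was not tested. In Empty-BAL against No-BAL, 9 of the 10 macrophage markers were called higher and 0 lower (0 at an unadjusted p under 0.05), with a median of 2.61. Of the 13 tested genes of the interferon gamma response, 7 were called higher there, where 12.6% of all genes were, and 0 lower, where 21.4% were (1 lower at an unadjusted p under 0.05, limma), among them the chemokine CXCL9 (log2 change 2.69 ± 0.32, adjusted p = 0.0023) and GBP1, a guanylate-binding protein (2.33 ± 0.31, adjusted p = 0.0031). The median of the list was 1.39, and that of all genes −0.14. Against Control, 4 of the 13 were called higher and 2 lower in Empty-BAL (24.4% and 29.3% of all genes), with a median of −0.03. In No-BAL, 6 were called lower than in Control and 0 higher (0 at an unadjusted p under 0.05, limma), with a median of −0.68. There 24.2% of all genes were lower and 25.2% higher. At day 8, 7 of the 13 were called lower than in Control, where 17.1% of all genes were, and 0 higher, where 15.1% were (0 at an unadjusted p under 0.05), led by the transcription factor IRF1 (−3.58 ± 0.24, adjusted p = 5.8e-05).

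The ratio of TDO2 to IDO1 was 284 to 420 in the Control libraries. It was 809 in No-BAL 2, 3.61 in Empty-BAL 1, 119 in Empty-BAL 2, 2960 at day 4, and 3778 and 4624 at day 8. No ratio could be formed for No-BAL 1, where IDO1 was listed at 0. IDO1 was at 0.0346 to 0.182 FPKM in No-BAL 2, at day 4 and at day 8, so the ratios there are imprecise. TDO2 thus exceeded IDO1 in every library.

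AFMID, the formamidase that releases kynurenine from formylkynurenine, was the gene of the 10 that ended farthest from normal liver. It was at 5.34, 7.17 and 5.94 FPKM in Control, 11.7 and 23.5 FPKM in No-BAL, 10.4 and 23.2 FPKM in Empty-BAL, 75.5 FPKM at day 4, and 224 and 223 FPKM at day 8. Every library of failing or treated liver lay above every Control library, and the day 8 mean was 3630% of the Control mean. The log2 difference between day 8 and Control was 4.98 ± 0.37 (adjusted p = 9.6e-05, limma), and it was 3.67 ± 0.41 against No-BAL (adjusted p = 0.00035) and 3.75 ± 0.41 against Empty-BAL (adjusted p = 0.00047). These calls passed with each library left out in turn.

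The rise of AFMID in failure was smaller and less certain. It was 1.31 ± 0.37 in No-BAL (adjusted p = 0.021) and 1.23 ± 0.37 in Empty-BAL (adjusted p = 0.024). The No-BAL call was lost without Control 1 (adjusted p = 0.064), Control 3 (0.058) or No-BAL 2 (log2 change 0.83, adjusted p = 0.14). The Empty-BAL call was lost without Control 1 (adjusted p = 0.073), Control 3 (0.065) or Empty-BAL 2 (log2 change 0.69, adjusted p = 0.12). On chromosome 12, 167 bases separate the annotated AFMID from TK1, the thymidine kinase of dividing cells, with no overlap. TK1 was at 2.32 to 3.75 FPKM in Control, 141 and 65.4 FPKM in No-BAL, 93.1 and 84.3 FPKM in Empty-BAL, 35.7 FPKM at day 4, and 0.404 and 0.511 FPKM at day 8. TK1 was therefore lowest at day 8, where AFMID was highest, but in failure and at day 4 both genes lay above every Control library. Their relation was not tested.

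KMO and KYNU act in sequence on kynurenine. KMO, the hydroxylase of the mitochondrial outer membrane, was at 102, 107 and 101 FPKM in Control, 17.2 and 31.6 FPKM in No-BAL, 9.85 and 15.5 FPKM in Empty-BAL, 48.1 FPKM at day 4, and 170.3 and 176 FPKM at day 8. It was low in all 4 failure libraries, between failure and Control at day 4, and above Control at day 8. KMO fell by 2.10 ± 0.28 on the log2 scale in No-BAL (adjusted p = 0.00068, limma) and fell by 2.97 ± 0.28 in Empty-BAL (adjusted p = 0.00012), and at day 8 was 2.84 ± 0.31 above No-BAL (adjusted p = 0.00033) and 3.70 ± 0.31 above Empty-BAL (adjusted p = 0.00019). The excess of 0.74 ± 0.28 over Control did not pass (adjusted p = 0.082).

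KYNU, the kynureninase that cleaves the product of KMO, was far less abundant. It was at 18.2, 18.8 and 19.0 FPKM in Control, 2.91 and 4.47 FPKM in No-BAL, 1.09 and 2.09 FPKM in Empty-BAL, 7.80 FPKM at day 4, and 8.37 and 7.58 FPKM at day 8. Unlike KMO, it stayed below every Control library at day 8, at 42.7% of the Control mean. KYNU fell by 2.09 ± 0.21 in No-BAL (adjusted p = 0.00019, limma), fell by 2.95 ± 0.21 in Empty-BAL (adjusted p = 3.8e-05) and fell by 1.13 ± 0.21 from Control to day 8 (adjusted p = 0.0056). Day 8 exceeded Empty-BAL by 1.82 ± 0.23 (adjusted p = 0.00098) and No-BAL by 0.96 ± 0.23 (adjusted p = 0.012). The excess over No-BAL was lost without No-BAL 1 (log2 change 0.71, adjusted p = 0.054), day 8 library 1 (0.89, adjusted p = 0.077) or day 8 library 2 (1.02, adjusted p = 0.052). The deficit against Control was lost without day 8 library 2 (−1.07, adjusted p = 0.058).

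HAAO, whose product becomes quinolinate unless ACMSD removes it, fell furthest in No-BAL among the 10 genes on the log2(FPKM + 1) scale. It was at 335, 370.4 and 333 FPKM in Control, 27.0 and 25.0 FPKM in No-BAL, 39.3 and 16.1 FPKM in Empty-BAL, 63.7 FPKM at day 4, and 131 and 132 FPKM at day 8. The day 8 libraries lay above every failure library and below every Control library. HAAO fell by 3.69 ± 0.33 on the log2 scale in No-BAL (adjusted p = 0.00011, limma), and in Empty-BAL it fell by 3.72 ± 0.33 (adjusted p = 9.1e-05). Day 8 exceeded No-BAL by 2.30 ± 0.36 (adjusted p = 0.0016) and Empty-BAL by 2.34 ± 0.36 (adjusted p = 0.0020). From Control to day 8 it fell by 1.39 ± 0.33 (adjusted p = 0.015). That call was lost without Control 2 (log2 change −1.34, adjusted p = 0.053), day 8 library 1 (−1.38, adjusted p = 0.094) or day 8 library 2 (−1.39, adjusted p = 0.093).

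ACMSD, the decarboxylase that diverts the product of HAAO away from quinolinate, had the largest standard errors of the 10. It was at 49.4, 50.4 and 39.2 FPKM in Control, 4.13 and 14.1 FPKM in No-BAL, 0.141 and 22.1 FPKM in Empty-BAL, 5.14 FPKM at day 4, and 106 and 121 FPKM at day 8. All failure libraries and the day 4 library lay below Control, and both day 8 libraries lay above it, at 245% of the Control mean. Its change in No-BAL, −2.42 ± 1.08, was not called (adjusted p = 0.099, limma), but was without either Empty-BAL library (adjusted p = 0.0025 and 0.0024). The calls in Empty-BAL against Control (−3.20 ± 1.08, adjusted p = 0.038) and at day 8 against No-BAL (3.70 ± 1.19, adjusted p = 0.035) did not last. The first was lost with any of 8 of the 9 libraries left out, with adjusted p from 0.052 to 0.15, and was −1.03 without Empty-BAL 1. The second was lost with any Control, No-BAL or day 8 library left out, with adjusted p from 0.056 to 0.17 (log2 change 2.92 without No-BAL 1). The difference between day 8 and Empty-BAL, 4.48 ± 1.19 (adjusted p = 0.020), was lost without either day 8 library (adjusted p = 0.082 and 0.092).

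QPRT, which makes the NAD precursor nicotinate mononucleotide from quinolinate, was at 279, 298 and 292 FPKM in Control. It was at 76.2 and 55.8 FPKM in No-BAL, 4.95 and 29.8 FPKM in Empty-BAL, 105.5 FPKM at day 4, and 128 and 129.8 FPKM at day 8. The day 8 level was above failure and below Control, as for HAAO. QPRT fell by 2.13 ± 0.58 in No-BAL (adjusted p = 0.018, limma) and fell by 4.43 ± 0.58 in Empty-BAL (adjusted p = 0.00057). The No-BAL call was lost without No-BAL 1 (−2.35, adjusted p = 0.053) or No-BAL 2 (−1.91, adjusted p = 0.098). Day 8 was 3.27 ± 0.64 above Empty-BAL (adjusted p = 0.0056), while its differences from No-BAL (0.97 ± 0.64, adjusted p = 0.24) and from Control (−1.16 ± 0.58, adjusted p = 0.17) did not pass. Both passed without either Empty-BAL library (adjusted p = 0.0021 against No-BAL, 0.00096 and 0.00093 against Control).

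The balance between the genes of both fates of the HAAO product was described by the ratio of ACMSD to QPRT. It was 0.134 to 0.177 in Control and 0.825 and 0.935 at day 8. In failure it was 0.0542 and 0.253 in No-BAL, 0.0285 and 0.742 in Empty-BAL, and 0.0487 at day 4. Both day 8 libraries were thus above every other library, while No-BAL and Empty-BAL each had 1 library below and 1 above the Control range.

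NAMPT, the rate-limiting enzyme of NAD salvage, was called in 2 of the 6 comparisons, both of Empty-BAL. It was at 26.5, 25.4 and 25.0 FPKM in Control, 18.5 and 35.8 FPKM in No-BAL, 4.92 and 11.9 FPKM in Empty-BAL, 27.0 FPKM at day 4, and 14.3 and 13.8 FPKM at day 8. The No-BAL libraries lay on either side of Control, and their mean change was 0.01 ± 0.36 (adjusted p = 0.99, limma). In Empty-BAL it fell by 1.61 ± 0.36 (adjusted p = 0.0072), a call that passed with each library left out but not when each library was scaled to one sum (−0.87, adjusted p = 0.15). Day 8 differed from Control by −0.82 ± 0.36 (adjusted p = 0.12), which was not called. Its difference between day 8 and No-BAL (−0.83 ± 0.40, adjusted p = 0.12) was called without No-BAL 1 (−1.29, adjusted p = 0.048) or without either Empty-BAL library (adjusted p = 0.034). The ratio of NAMPT to QPRT was 0.0853 to 0.0952 in Control, 0.243 and 0.641 in No-BAL, 0.995 and 0.401 in Empty-BAL, 0.256 at day 4, and 0.111 and 0.106 at day 8. In every library of failing or treated liver it was above the Control range.

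NNMT, which uses a methyl group of S-adenosylmethionine to mark nicotinamide for removal, split the No-BAL group. It was at 187, 192 and 174 FPKM in Control, 1233 FPKM in No-BAL 1 but 56.4 FPKM in No-BAL 2, 39.2 and 32.2 FPKM in Empty-BAL, 3580.2 FPKM at day 4, and 311 and 300.3 FPKM at day 8. The library at day 4 was the highest of all and stood at 1942% of the Control mean. None of the 6 comparisons was called in limma, and 2 of them had an unadjusted p under 0.05. These were Empty-BAL against No-BAL (−2.86 ± 1.14, adjusted p = 0.087) and day 8 against Empty-BAL (3.07 ± 1.14, adjusted p = 0.065). The first was called at −0.65 without No-BAL 1 (adjusted p = 0.040) and at −5.08 without No-BAL 2 (adjusted p = 0.00037). The second was called without either No-BAL library (adjusted p = 0.00012 and 0.00013) and, just, with one sum per library (2.84, adjusted p = 0.0496). The change from Control to No-BAL was −1.69 without No-BAL 1 (adjusted p = 0.00078) and 2.74 without No-BAL 2 (adjusted p = 0.00021). The difference of day 8 from No-BAL likewise turned, from 2.42 without No-BAL 1 to −2.01 without No-BAL 2. The decrease of NNMT in Empty-BAL against Control (−2.34 ± 1.04, adjusted p = 0.092) was called without either No-BAL library (adjusted p = 7.2e-05 and 7.4e-05). FGB, a fibrinogen chain made by hepatocytes in the acute phase, was also highest at day 4 and higher in No-BAL 1 than in No-BAL 2, but unlike NNMT it was below Control at day 8. It was at 5880.2 to 6022 FPKM in Control, 9495 and 2296 FPKM in No-BAL, 218 and 942 FPKM in Empty-BAL, 17066 FPKM at day 4, and 2748 and 2749 FPKM at day 8. FGB was the only one of the hepatocyte markers above Control in No-BAL 1. At day 4, APOA1 and HNF4A were also above Control, while ALB, AHSG, TTR, TF, APOB, CPS1 and SERPINA1 were below it. The relation of FGB to NNMT was not tested.

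The ratio of NNMT to NAMPT was 6.98 to 7.55 in Control. It was 66.7 in No-BAL 1, 1.58 in No-BAL 2, 7.97 and 2.70 in Empty-BAL, 133 at day 4, and 21.8 and 21.7 at day 8. Both day 8 libraries, the day 4 library, No-BAL 1 and Empty-BAL 1 were above the Control range, and No-BAL 2 and Empty-BAL 2 were below it.

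**Figure D2:**
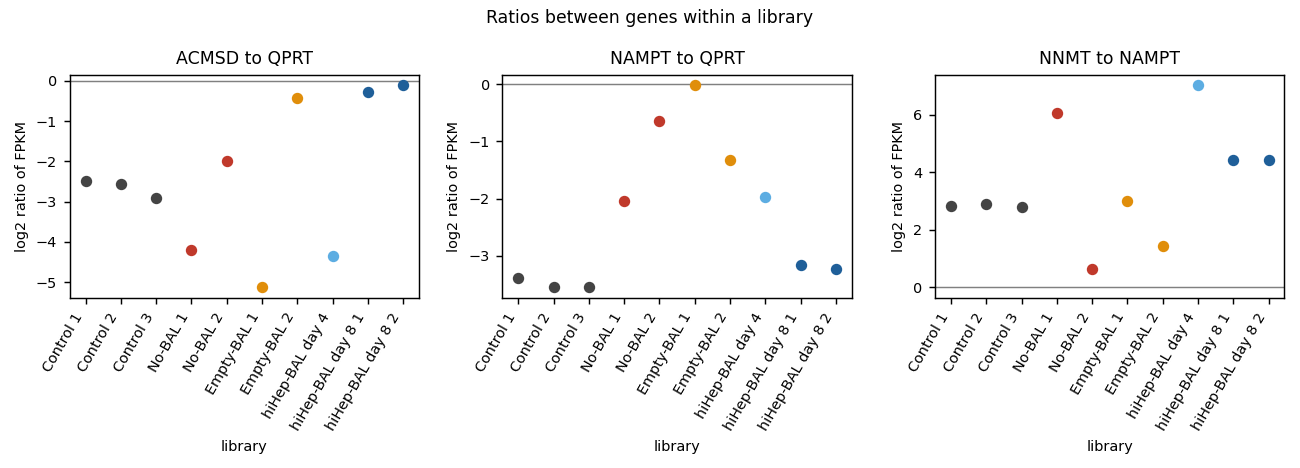
Log2 ratio of FPKM between pairs of genes (y axis) within each of the 10 libraries (x axis), coloured by group. The ACMSD to QPRT ratio is highest in both hiHep-BAL day 8 libraries (0.825 and 0.935 on the linear scale), and the NNMT to NAMPT ratio is highest at day 4 (133).

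Between the failure groups, 3 of the 10 genes were called lower with the empty device, a share not far from that of all genes. Against No-BAL, KYNU (−0.86 ± 0.23, adjusted p = 0.027, limma), QPRT (−2.29 ± 0.64, adjusted p = 0.029) and NAMPT (−1.61 ± 0.40, adjusted p = 0.020) were called lower in Empty-BAL, where 21.4% of all genes were lower. None was called higher, against 12.6% of all genes, and 1 had an unadjusted p under 0.05 in that direction. Each call was lost with some libraries left out: KYNU with any of 7 of the 9 libraries left out (log2 change from −0.86 to −0.58, adjusted p from 0.052 to 0.11), QPRT with any of 7 (adjusted p from 0.053 to 0.10) and NAMPT without No-BAL 2 (adjusted p = 0.088) or Empty-BAL 1 (adjusted p = 0.054). Without Empty-BAL 2, which leaves 1 library in that group, the log2 change was −1.66 for TDO2, −1.17 for KMO and −2.95 for ACMSD. It was 0.58 for HAAO and 2.00 for IDO1.

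At day 8 of the seeded device, 6 of the 10 genes were called higher than in No-BAL (TDO2, AFMID, KMO, KYNU, HAAO and ACMSD), where 22.5% of all genes were higher. None was called lower, against 24.8% of all genes, and 0 had an unadjusted p under 0.05 in that direction (limma). Against Empty-BAL, 7 of the 10 were called higher (the same 6 and QPRT), against 22.6% of all genes, and 0 lower, against 17.6% (0 at an unadjusted p under 0.05). The median log2 change of the 10 genes was 1.64 against No-BAL and 3.17 against Empty-BAL, and that of all genes −0.03 and 0.05. These comparisons share the day 8 libraries. Of the hepatocyte markers, 0 of 10 were called higher than in No-BAL (0 at an unadjusted p under 0.05) and 1 lower, with a median of 0.51. Against Empty-BAL, 7 of the 10 markers were called higher, with a median of 2.16.

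Against Control, the day 8 libraries were above it for some genes and below it for others. Only AFMID was called higher, against 15.1% of all genes, and KYNU and HAAO were called lower, against 17.1%. The median change of the 10 genes was −0.04 and that of all genes −0.02. Of the hepatocyte markers, 4 were called lower than in Control and 0 higher (0 at an unadjusted p under 0.05), with a median of −1.49. The spread in this fit comes largely from the failure libraries. When the day 8 and Control libraries were fitted alone, an analysis added after the values were seen, all 10 genes were called, 5 higher (TDO2, AFMID, KMO, ACMSD and NNMT) and 5 lower (IDO1, KYNU, HAAO, QPRT and NAMPT), as were 8384 of the 12180 genes. Leaving out either Empty-BAL library left the log2 changes between day 8 and Control as they were, since those libraries enter this comparison only through the spread.

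**Figure D3:**
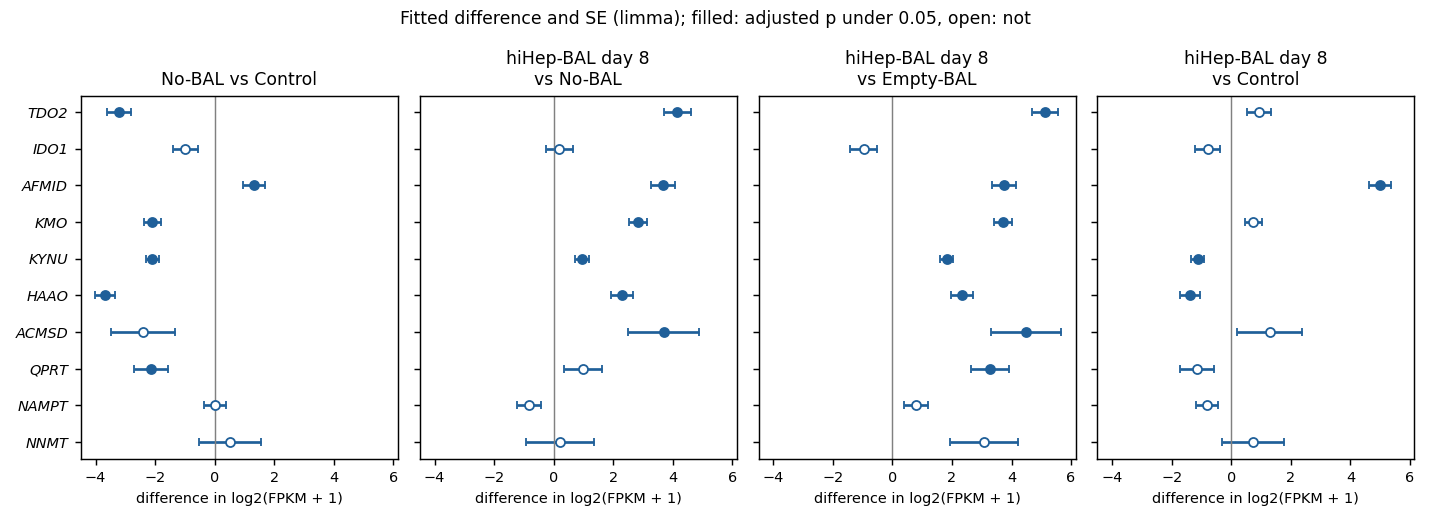
Fitted difference in log2(FPKM + 1) (x axis; points, with SE as bars) for each of the 10 genes (y axis) in 4 comparisons; filled points have an adjusted p under 0.05 and open points do not. Points of TDO2, KMO, KYNU and HAAO lie left of 0 for No-BAL against Control and right of 0 for day 8 against No-BAL, while AFMID lies right of 0 in all 4 panels.

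The scale of the libraries also bears on the comparison with Control. Summed FPKM ran from 439925 to 829970 over the libraries, highest in Control. When each library was scaled to one sum, also added after the values were seen, the median change of all genes between Control and day 8 moved from −0.02 to 0.46. TDO2 (1.51, adjusted p = 0.018, limma) and KMO (1.31, adjusted p = 0.034) were then called higher, and KYNU (−0.62, adjusted p = 0.18) and HAAO (−0.82, adjusted p = 0.072) were no longer called lower. Relative to the median gene, KYNU stood at −1.12 as deposited and −1.08 after scaling, HAAO at −1.37 and −1.28, TDO2 at 0.96 and 1.05, and AFMID at 4.996 and 5.12. Scaling moves nearly all genes of a library by the same log2 amount, which the median takes out. The closeness of these values therefore follows from the method and adds no support. The same scaling moved the share of called genes that were higher from 51.0% to 66.6% in No-BAL and from 45.4% to 77.4% in Empty-BAL, both against Control, and from 37.0% to 84.6% in Empty-BAL against No-BAL. At day 8 it moved from 47.5% to 58.7% against No-BAL, from 56.2% to 38.6% against Empty-BAL and from 46.9% to 78.9% against Control.

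The single day 4 library held intermediate values for most of the pathway and extreme values for NNMT. Relative to the Control mean, TDO2 was at 87.1%, KMO at 46.5%, KYNU at 41.7%, QPRT at 36.4%, HAAO at 18.4% and ACMSD at 11.101%. NAMPT was at 105.3% and AFMID at 1228%. TDO2 was therefore near its Control level while HAAO and ACMSD, which act later, were not. With 1 library, these values carry no test.

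**Figure D4:**
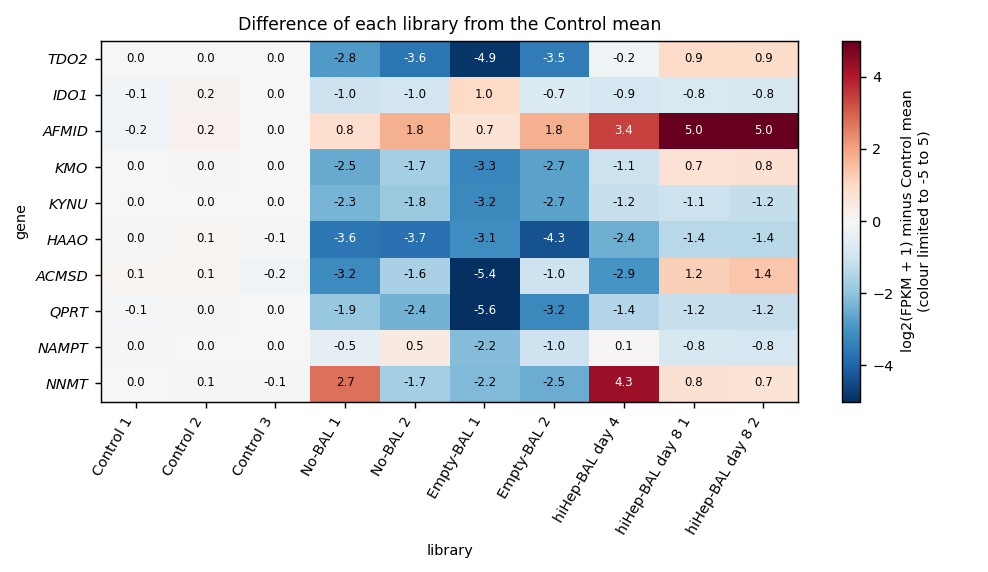
Difference of log2(FPKM + 1) from the Control mean (colour and number in each cell) for the 10 genes (rows) in each library (columns). The failure libraries are blue for TDO2, KMO, KYNU, HAAO, ACMSD and QPRT, and the hiHep-BAL day 8 libraries are red for TDO2, AFMID, KMO, ACMSD and NNMT.

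Other enzymes of kynurenine and of the glutarate branch were mostly lower in failure. Of 9 tested, 7 were called lower in No-BAL than in Control and 0 higher (0 at an unadjusted p under 0.05, limma), and in Empty-BAL all 9 were called lower. Of all genes, 24.2% were lower in No-BAL (25.2% higher) and 29.3% in Empty-BAL. Their median log2 change was −2.20 in No-BAL and −3.05 in Empty-BAL. At day 8, 6 were called higher than in No-BAL and 1 lower, with a median of 2.08, beside 22.5% and 24.8% of all genes. IDO2, a relative of IDO1, was at 24.1 to 26.6 FPKM in Control, well above IDO1 in the same libraries. It was at 0.592 and 0.107 FPKM in No-BAL, 2.31 and 0.276 FPKM in Empty-BAL, 5.51 FPKM at day 4, and 5.94 and 6.25 FPKM at day 8. It fell by 4.32 ± 0.36 in No-BAL (adjusted p = 8.4e-05) and was at −1.90 ± 0.36 against Control at day 8 (adjusted p = 0.0060), and no other gene of the list was called between day 8 and Control.

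Genes at the far end of the glutarate branch and at a side exit of kynurenine rose from No-BAL to day 8. ACAT1, which makes acetyl-CoA, fell by 2.82 ± 0.34 in No-BAL (adjusted p = 0.00042, limma), and 3.05 ± 0.37 higher at day 8 than in No-BAL (adjusted p = 0.00055). KYAT1, an aminotransferase that turns kynurenine into kynurenic acid, was 2.79 ± 0.36 higher at day 8 than in No-BAL (adjusted p = 0.00068). KYAT3, its relative, was the 1 gene of the list called lower there (−0.77 ± 0.27, adjusted p = 0.047). AADAT was listed at 0 in all 10 libraries.

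Other genes of NAD synthesis showed smaller and mixed changes. Of 7 tested, 3 were called lower in No-BAL than in Control and 0 higher (0 at an unadjusted p under 0.05, limma), and at day 8, 3 were called higher than in No-BAL and 1 lower, with medians of −0.70 and 0.40. The shares of all genes were 24.2% lower and 25.2% higher in the first comparison, and 22.5% higher and 24.8% lower in the second. NMRK1, the nicotinamide riboside kinase, fell by 2.75 ± 0.28 in No-BAL (adjusted p = 0.00018) and was at −1.50 ± 0.28 against Control at day 8 (adjusted p = 0.0052). NADK2, the mitochondrial NAD kinase, was at 31.8 to 33.1 FPKM in Control, 37.7 and 32.4 FPKM in No-BAL, 2.48 and 21.1 FPKM in Empty-BAL, 31.1 FPKM at day 4, and 7.35 and 7.50 FPKM at day 8. It was called lower at day 8 than in No-BAL (−2.09 ± 0.69, adjusted p = 0.039) and than in Control (−1.99 ± 0.63, adjusted p = 0.046). SLC25A51, the mitochondrial NAD carrier, was called higher at day 8 than in Control (0.77 ± 0.17, adjusted p = 0.010) and than in No-BAL (1.68 ± 0.18, adjusted p = 0.00034).

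AOX1, which oxidises the product of NNMT, and GNMT and MAT1A, which use and supply the same methyl donor as NNMT, fell in both failure groups. Of the 6 genes of this list, 3 were called lower in No-BAL than in Control and 0 higher (0 at an unadjusted p under 0.05, limma), with a median of −1.26, beside 24.2% and 25.2% of all genes. AOX1 was at 203 to 205 FPKM in Control, 11.2 and 4.82 FPKM in No-BAL, 6.23 and 5.80 FPKM in Empty-BAL, 63.5 FPKM at day 4, and 35.2 and 35.4 FPKM at day 8. It fell by 4.61 ± 0.28 in No-BAL (adjusted p = 2.2e-05) and fell by 2.50 ± 0.28 from Control to day 8 (adjusted p = 0.00058). GNMT, which methylates glycine with the same donor, was at 607 to 656 FPKM in Control, 129.7 and 69.1 FPKM in No-BAL, 41.5 and 103 FPKM in Empty-BAL, 330.4 FPKM at day 4, and 2241 and 2190.0 FPKM at day 8. Its day 8 libraries were above every other library, 1.82 ± 0.41 above Control on the log2 scale (adjusted p = 0.012). MAT1A, the hepatocyte enzyme that makes the donor, fell by 3.08 ± 0.20 in No-BAL (adjusted p = 2.8e-05) and was 3.27 ± 0.22 higher at day 8 than in No-BAL (adjusted p = 5.1e-05).

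**Figure D5:**
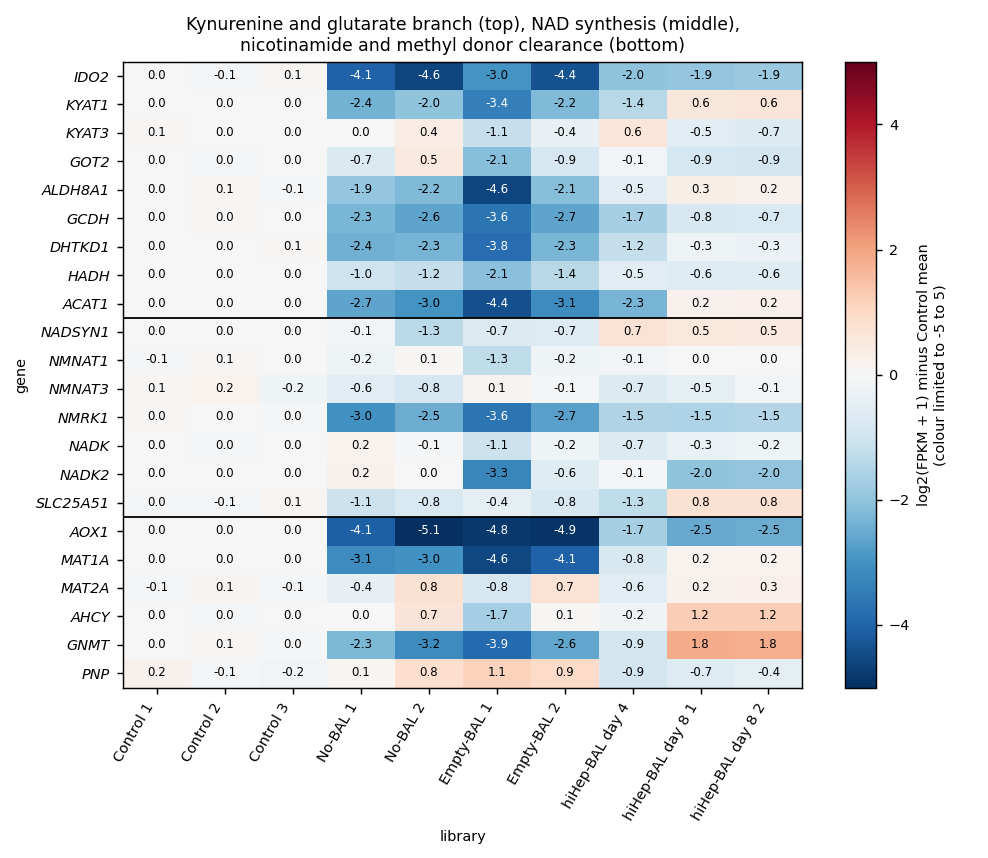
Difference of log2(FPKM + 1) from the Control mean (colour and number in each cell) for tested genes of the kynurenine and glutarate branch (top), of NAD synthesis (middle) and of nicotinamide and methyl donor clearance (bottom), in each library (columns). IDO2 and AOX1 are blue in every failure and treated library, and GNMT is red in both hiHep-BAL day 8 libraries.

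Enzymes that consume NAD were called at rates near those of all genes. Of 14 tested, 4 were called higher and 4 lower in No-BAL than in Control, and 3 higher and 2 lower at day 8 than in Control, with medians of −0.10 and 0.19. Of all genes, 25.2% and 24.2% were called higher and lower in the first comparison, and 15.1% and 17.1% in the second. PARP1, which uses NAD in DNA repair, was at 6.16 to 6.97 FPKM in Control, 15.7 and 16.0 FPKM in No-BAL, 10.7 and 8.89 FPKM in Empty-BAL, 6.17 FPKM at day 4, and 4.15 and 3.97 FPKM at day 8. It rose by 1.14 ± 0.14 in No-BAL (adjusted p = 0.00044, limma) and at day 8 was at −0.59 ± 0.14 against Control (adjusted p = 0.015). Among the sirtuins, NAD-dependent deacylases, SIRT7 was called higher in No-BAL (1.32 ± 0.34, adjusted p = 0.015) and in Empty-BAL (1.89 ± 0.34, adjusted p = 0.0027), SIRT6 in No-BAL (1.05 ± 0.17, adjusted p = 0.0016) and in Empty-BAL (1.37 ± 0.17, adjusted p = 0.00042), and SIRT5 in No-BAL (1.16 ± 0.30, adjusted p = 0.015). SIRT3, a mitochondrial sirtuin, was called lower in No-BAL (−1.01 ± 0.29, adjusted p = 0.022) and in Empty-BAL (−1.74 ± 0.29, adjusted p = 0.0018), and SIRT1, a nuclear one, was called higher at day 8 than in Control (0.85 ± 0.21, adjusted p = 0.018).

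The genes most like each of the 10, by Pearson correlation of log2(FPKM + 1) over the 10 libraries among 4505 genes with a mean of 10 FPKM or more, are given as a description. The libraries fall into groups that differ widely, so high values are common. TDO2 was most like SLC7A2, a carrier of cationic amino acids (r = 0.99), and KMO most like UPP2, a uridine phosphorylase (0.99). KYNU was most like DECR1, an enzyme of fatty acid oxidation (0.99), HAAO most like SLC10A1, the hepatocyte bile acid importer (0.99), and QPRT most like MAOB, a monoamine oxidase (0.996). ACMSD was most like SERPINA4 (0.98) and NAMPT most like GOT2, the mitochondrial aspartate aminotransferase (0.98). IDO1 was most like BCL2A1, an anti-apoptotic gene of leukocytes (0.95), AFMID most like GGNBP2 (0.97) and NNMT most like CEP192, a centrosome gene (0.93). None of the 10 genes was among the 3 most like another of them.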

How the data were processed

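RNA-seq of 10 pig liver libraries was analysed from the authors' deposited table of FPKM values, 1 row per gene. Per the labels' protocols, total RNA was extracted with Trizol and sequenced from TruSeq libraries as read pairs on an Illumina sequencer. Per the submitters' processing notes, tools used were Cufflinks, HTSeq and HISAT2, and 2 builds are listed, mm10 and Sscrofa11.1, with no role for each. Read depth is unknown, so no counting error is given.

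Genes at 1 FPKM or more in at least 2 libraries (12180 of 31905) were tested on log2(FPKM + 1) with limma 3.58.1 (R 4.3.3), using a mean-variance trend, in 1 fit of all libraries with a mean per group (5 residual degrees of freedom), two-sided, with Benjamini-Hochberg adjustment over all tested genes. Fold changes on this scale understate the change of low genes. The fit was checked on simulated data with the same spread in every group. The spread of these libraries differed widely between groups, so the check does not cover that. Symbols came from the table; coordinates of the 10 genes came from RefSeq's Sscrofa11.1 table, matched by symbol for 10 of 10. KMO and NAMPT each overlap an annotated long non-coding RNA. The 10 genes, the gene lists and the rule for named genes (up to 3 called genes with the largest change per list, direction and comparison, and the 3 genes most like each of the 10) were chosen with earlier results of these data known. TK1, FGB and other marker genes are named as markers, and CYP1A1 as a further target of the aryl hydrocarbon receptor. Alternatives were a pseudocount of 0.1, no filter, upper-quartile scaling, a replicate block, Control and day 8 counted once, no trend and each library left out.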

Additional observations from a re-analysis of the deposited data

How the results depend on the processing

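Counting Control and hiHep-BAL day 8 as 1 sample each left 419 genes called in No-BAL and 692 in Empty-BAL against Control, 0 in Empty-BAL against No-BAL (2657 at an unadjusted p under 0.05, limma), and 299, 34 and 17 at day 8 against No-BAL, Empty-BAL and Control. Of the 10 genes it left 3 in Empty-BAL against Control and 0 in each other comparison, where 4, 2, 4, 7 and 1 had an unadjusted p under 0.05, in the order No-BAL against Control, Empty-BAL against No-BAL, and day 8 against No-BAL, Empty-BAL and Control. Fitting day 8 and Control alone called 8384 genes and all 10 of the set. In Empty-BAL against No-BAL, 1 of the 10 was called with no filter and 1 with upper-quartile scaling, and 0 with one sum per library (1 higher and 3 lower at an unadjusted p under 0.05).

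Same-numbered libraries deviated from their group means together with r from −0.089 to 0.14. Where a group holds only a pair of libraries, their deviations mirror each other, so some of these values repeat. The values therefore cannot decide whether the numbers pair the samples. With the replicate number as a block, 2502 genes and 1 of the 10 were called in Empty-BAL against No-BAL, 2341 genes at day 8 against Control, and NAMPT in No-BAL against Control was at −0.0104. The block ended the calls of QPRT in No-BAL against Control (adjusted p = 0.053), HAAO at day 8 against Control (0.056), and KYNU (0.055) and QPRT (0.059) in Empty-BAL against No-BAL, and no other call of the 10 genes.

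Signs turned for values that were not called. IDO1 in Empty-BAL against Control was −0.0704 with a pseudocount of 0.1. With upper-quartile scaling NAMPT in No-BAL was −0.0271, and in Empty-BAL against No-BAL AFMID was 0.17 and HAAO 0.23, or 0.36 and 0.41 with one sum per library. Leaving out 1 library gave ranges of −0.45 to 0.47 for NAMPT, −1.69 to 2.74 for NNMT (both No-BAL against Control) and −0.69 to 1.01 for IDO1 (Empty-BAL against Control). In Empty-BAL against No-BAL the ranges were −0.62 to 0.46 for AFMID, −0.65 to 0.58 for HAAO and −2.95 to 1.39 for ACMSD, and NNMT at day 8 against No-BAL ran from −2.01 to 2.42. Genes called ran from 2768 (without day 8 library 1) to 6679 (without Empty-BAL 2) in Empty-BAL against No-BAL, and at day 8 from 3418 (without day 8 library 1) to 7568 (without Empty-BAL 1) against No-BAL, 2423 to 6798 against Empty-BAL and 1723 to 5956 against Control (both without day 8 library 1 and without Empty-BAL 2). Of the 10 genes, 1 to 8 were called in Empty-BAL against No-BAL and 1 to 9 at day 8 against Control. The cause of these shifts was not tested.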

Other observations

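Of 10 tested genes that take up tryptophan or spend it elsewhere, 3 were called higher and 4 lower in No-BAL than in Control (limma, adjusted p under 0.05), with a median log2 change of 0.22 beside 0.04 for all genes, of which 25.2% were called higher and 24.2% lower. WARS1, which loads tryptophan on its transfer RNA, was at 8.34 to 9.75 FPKM in Control, 44.3 and 32.7 FPKM in No-BAL, 24.7 and 25.5 FPKM in Empty-BAL, 19.95 FPKM at day 4 and 8.66 and 8.67 FPKM at day 8. It was higher in No-BAL by 1.95 ± 0.17 on the log2 scale (adjusted p = 9.8e-05) and lower at day 8 than in No-BAL (−2.01 ± 0.19, adjusted p = 0.00017). SLC7A5, a subunit of the large amino acid carrier, was called higher in No-BAL than in Control (0.84 ± 0.15, adjusted p = 0.0028) and lower at day 8 than in Control (−1.47 ± 0.15, adjusted p = 0.00037). INMT, a methyltransferase of tryptamine, was at 513 to 532 FPKM in Control, 30.5 and 13.6 FPKM in No-BAL, 22.7 and 83.6 FPKM in Empty-BAL, 40.0 FPKM at day 4, and 243 and 245 FPKM at day 8.

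Kynurenine and its products can bind the aryl hydrocarbon receptor. Of 9 tested genes of that axis, 1 was called higher and 2 lower in No-BAL than in Control, with a median of −0.60, shares no greater than those of all genes (25.2% and 24.2%). CYP1A2, a target of the receptor that is also a hepatocyte gene, was at 586 to 596 FPKM in Control, 9.84 and 8.09 FPKM in No-BAL, 6.93 and 42.0 FPKM in Empty-BAL, 74.1 FPKM at day 4, and 214 and 204 FPKM at day 8. TIPARP, another target, was called lower than Control in No-BAL (−1.69 ± 0.14, adjusted p = 7.4e-05) and at day 8 (−1.55 ± 0.14, adjusted p = 0.00020). Other targets were called higher by limma in Empty-BAL than in Control, NQO1 by 1.69 ± 0.59 (adjusted p = 0.043) and CYP1B1 by 0.64 ± 0.18 (adjusted p = 0.017). NQO1 in No-BAL was at 1.63 ± 0.59 (adjusted p = 0.052). CYP1B1 was low, at 0.106 to 0.276 FPKM in Control and 0.551 and 1.23 FPKM in Empty-BAL. CYP1A1, a further target, was not called against Control in either failure group. It was at 39.5 to 41.6 FPKM in Control, 14.2 and 9.59 FPKM in No-BAL, 0.582 and 67.8 FPKM in Empty-BAL, 52.7 FPKM at day 4, and 8.67 FPKM in both day 8 libraries.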
